A study of Mus musculus with 9 samples.

Results

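The mitosis and G2/M genes were a set of 44 genes chosen by symbol, whose products take a cell from the end of DNA replication through chromosome segregation to cytokinesis. All 44 symbols were present in each of the 9 tables, among 15265 genes in all. The data were Drop-seq libraries of unselected bone marrow cells from C57BL/6 mice aged 2 to 3 weeks, in which beads carrying barcodes tag the 3′ ends of the transcripts of each cell. Every animal carried NG2-cre, in which the Cspg4 promoter, active in mesenchymal cells of the marrow and not across blood cells, drives Cre. Of the libraries, 5 came from NG2-cre/Pot1a wt/wt animals, the controls, and 4 from NG2-cre/Pot1a fl/fl animals, in which cells with an active NG2 promoter lose the telomere-binding protein Pot1a. The blood cells measured here were thus mostly not themselves the target of the deletion, and each table held 100 barcodes.

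As background, a cell that enters mitosis activates the kinase Cdk1 with its cyclins, condenses its chromosomes, builds a spindle, checks that every kinetochore is attached, and then destroys cyclin B through the anaphase-promoting complex. Many of the genes involved are transcribed late in the cycle under the DREAM and MuvB complexes with B-Myb and FoxM1, so their RNA marks cells in the second part of the cycle. In the marrow, precursors of B cells, red cells and neutrophils divide as they mature and stop dividing before they are complete.

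The members were grouped by role. They comprised cyclins and mitotic kinases (Cdk1, Ccna2, Ccnb1, Ccnb2, Plk1, Aurka), the spindle checkpoint (Bub1, Bub1b, Bub3, Ttk), partners of the anaphase-promoting complex (Cdc20, Ube2c, Cdca3), the chromosomal passenger complex (Aurkb, Birc5, Incenp, Cdca8), the centromere and kinetochore (Cenpa, Hjurp, Cenpe, Cenpf, Ndc80, Nuf2) and chromosome structure (Top2a, Smc2, Smc4, Mki67). The remaining members serve spindle assembly (Tpx2, Hmmr, Kif11, Kif2c, Nusap1, Tacc3, Dlgap5, Gtse1, Ckap2, Ckap2l) and the central spindle and cytokinesis (Kif4, Kif20b, Kif23, Prc1, Racgap1, Ect2, Anln).

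Promoters were examined because nearly all tested members had folds of the same sign in the B-lineage and erythroid stage comparisons given below. The neutrophil comparisons differed in direction. The members were chosen as mitosis and G2/M genes, so the motif shares describe that choice as well. RefSeq promoter sequences (GRCm38.p6, 250 bases before to 50 after the start) were matched for 38 of the 44 members. The letters TTTGAA, the core of the cell cycle genes homology region (CHR) bound by the MuvB complex, were searched on both strands, as was CCAAT, the box bound by NF-Y. TTTGAA was found in 30 of the 38 member promoters (78.9%) and in 18.1% of all 27025 promoters. It lay within 50 bases of the start in 27 of them (71.1%), against 4.92% of all promoters. CCAAT was found in 30 of 38 (78.9%) against 37.9% of all, and both motifs in 26 (68.4%) against 7.12%. Matches of the motifs may overlap each other, and a match describes letters, not a bound site.

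The 150 bases before the start are shown for 3 members that were called in every comparison of B-lineage and erythroid stages below. Each had a whole TTTGAA match, on either strand, upstream of the start. In Prc1, called in the same comparisons, the match began 5 bases before the start and ran past it. The stretches are written 5′ to 3′ on the strand of the gene. TTTGAA or its reverse complement TTCAAA, and CCAAT or its reverse complement ATTGG, are in capitals. The Mki67 stretch is at chr7:135716380-135716529 on the minus strand, the Top2a stretch at chr11:99024190-99024339 on the minus strand and the Ube2c stretch at chr2:164769779-164769928 on the plus strand.
Mki67: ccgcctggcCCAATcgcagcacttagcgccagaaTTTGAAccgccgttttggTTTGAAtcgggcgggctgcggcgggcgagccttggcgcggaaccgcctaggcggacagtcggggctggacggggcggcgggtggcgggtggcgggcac
Top2a: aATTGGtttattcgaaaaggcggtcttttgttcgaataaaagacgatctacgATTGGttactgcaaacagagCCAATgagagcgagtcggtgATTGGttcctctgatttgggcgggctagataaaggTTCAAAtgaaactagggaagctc
Ube2c: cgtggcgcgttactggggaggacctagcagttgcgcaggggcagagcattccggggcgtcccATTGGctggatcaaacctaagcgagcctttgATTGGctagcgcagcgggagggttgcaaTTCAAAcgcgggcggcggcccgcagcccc
In Top2a and Ube2c the match nearest the start began 23 and 29 bases before it, whereas both matches of Mki67 began farther upstream, at 116 and 98 bases. The promoters of Birc5, Nusap1, Tacc3 and Nuf2 held neither motif in this window.

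Depth and quality were as follows. The tables held 2616983 counts, 119459 (Pot1a fl/fl 3) to 465277 (Pot1a fl/fl 1) per library, and 899 of 900 barcodes were kept. Pot1a wt/wt 2 and 3 shared 19 barcodes, and of 36 pairs of libraries this was the only 1 that shared any. The main tests counted them as separate libraries. The shallowest libraries, Pot1a wt/wt 5 and Pot1a fl/fl 3, held 27 each of the 71 cells marked as doublets. Pot1a itself gave 2 to 10 counts per control library and 1 to 15 per Pot1a fl/fl library, too few to check the labels, and the deletion was directed to other cells. Which mouse gave which library is not stated in the labels, and p-values therefore measure the spread between libraries, which may be partly technical. For these cells the study names a smaller number of mice in each group than of libraries used here, so libraries may share animals, and SE and p-values over libraries are then too small.

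The members gave 47808 of the counts of kept cells. The 12 with most counts were Smc4 (6788 counts), Top2a (4827), Mki67 (4808), Smc2 (3583), Cenpe (2686), Cenpf (2040), Incenp (1810), Kif20b (1516), Prc1 (1414), Hmmr (1368), Birc5 (1294) and Nusap1 (1264). Together they made up 69.9% of the member counts, so the summed level reported below rests mainly on chromosome structure and centromere genes. The core regulators were sparse. Cdk1 had 478 counts in 280 cells, Ccnb1 303 in 197 cells and Plk1 215 in 161 cells. Gtse1 with 42 counts, Ect2 with 92 and Kif2c with 148 were the fewest. Totals of different genes reflect detection of 3′ ends and are no ranking of RNA levels.

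Cells were clustered without the members and without other cell-cycle genes, so that the clusters did not rest on the genes compared. Of the 11 clusters, 10 matched marker lists of a lineage. Cluster 1 of 135 cells was B-lineage-like and led by Igkc, Fcrla and Cd72. Its markers fitted pro-B and small pre-B stages equally well, so it is called the Igkc cluster. The pro-B-like cluster (95 cells) was led by Igll1, Vpreb1 and Dntt, the erythroid clusters by Fam132a and Car1 (early erythroid-like, 103 cells), Mgst3 and Hemgn (erythroblast-like, 95 cells) and alpha globin genes (globin-rich, 54 cells). The neutrophil clusters were led by Elane and Mpo (primary-granule precursors, 53 cells), Camp and Ngp (secondary-granule precursors, 108 cells) and Mmp8 and Cxcr2 (late neutrophil-like, 94 cells). A monocyte-like cluster (63 cells, F13a1 and Ccr2), a mesenchymal-like cluster (29 cells, Col1a2 and Col1a1) and an unnamed cluster (70 cells, Mcpt8 and Ifitm1) completed the set.

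The summed level of the members differed between clusters. It is given as the percent of all counts of a cluster in a library, over libraries with at least 5 cells of the cluster. It was highest in globin-rich cells (3.38% ± 0.803, SD, n = 7 libraries, 2.25% to 4.55%) and in the Igkc cluster (2.90% ± 0.805, n = 9, 1.99% to 4.19%), followed by erythroblast-like cells (2.56% ± 0.346, n = 8) and monocyte-like cells (2.15% ± 0.700, n = 8). These neighbours in the order overlapped in their libraries. Pro-B-like cells had 1.72% ± 0.362 (n = 9), secondary-granule precursors 1.49% ± 0.468 (n = 8), early erythroid-like cells 1.37% ± 0.276 (n = 9) and the unnamed cluster 1.16% ± 0.420 (n = 8). Primary-granule precursors (1.01% ± 0.326, n = 6), mesenchymal-like cells (0.987% ± 0.986, n = 3) and late neutrophil-like cells (0.944% ± 0.356, n = 9) were lowest and overlapped each other.

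**Figure D1:**
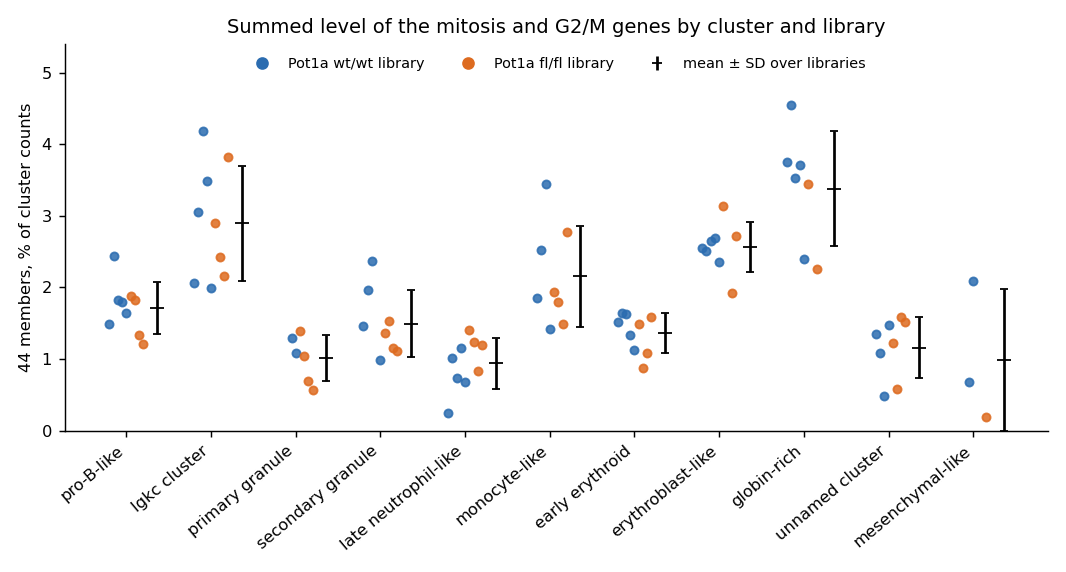
The vertical axis gives the counts of the 44 members as a percent of all counts of a cluster in a library, and each point is a library with at least 5 cells of that cluster, coloured by genotype; bars show mean and SD over libraries. Globin-rich cells (3.38% on average) and the Igkc cluster (2.90%) lie highest, and points of both genotypes are mixed in most clusters.

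Per cell, the order was different in part, and the earlier of these clusters had more counts per cell in all. Erythroblast-like cells carried 74.4 member counts on average and globin-rich cells 69.5 in the 7 libraries that held both. In the 8 libraries with early erythroid-like and erythroblast-like cells, the averages were 73.9 and 76.2. Pro-B-like cells carried 61.2 and Igkc cluster cells 68.2, with the pro-B-like value lower in 4 of 9 libraries only. The stage differences below are therefore differences in the share of RNA, and fewer cells in the late cycle and less member RNA in each of them cannot be told apart in summed counts.

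To compare single cells at one depth, each cell was thinned to 1000 counts, which left out 52 control and 58 Pot1a fl/fl cells. Most of these came from the shallowest libraries, as 54 cells of Pot1a wt/wt 5 and 44 of Pot1a fl/fl 3 remained. The other libraries kept 96 to 100 cells each. At least 2 member counts were then found in 94.5% ± 3.55 of cells in control libraries (SD, n = 5) and 93.0% ± 2.42 in Pot1a fl/fl libraries (SD, n = 4), and in 64.5% of 76 late neutrophil-like cells (80.9% before thinning). No cluster lacked the members altogether, so free RNA in droplets could not be measured from a cell type without them. A limit of 2 counts was thus close to saturation, and a limit of 10 counts, chosen after seeing the data, separated the clusters better. It was reached by 97.9% of globin-rich cells, 94.4% of erythroblast-like cells, 85.5% of Igkc cluster cells, 75.5% of monocyte-like cells and 73.2% of early erythroid-like cells, against 27.6% of late neutrophil-like cells. Before thinning, these shares were 94.4%, 96.8%, 83.0%, 81.0% and 92.2%, against 29.8% (median depths 2111, 2624, 1847, 1994, 3784 and 1638.5 counts). All these shares pool cells over libraries. After thinning, single libraries with at least 5 cells of the cluster ran from 0% to 61.5% in late neutrophil-like cells. The range was 0% to 27.3% in 4 control libraries and 27.3% to 61.5% in 3 Pot1a fl/fl libraries, and this difference was not tested. The pooled 27.6% thus joins both genotypes. In early erythroid-like cells single libraries ran from 44.4% to 92.9%.

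Cells of one cluster differed widely. Late neutrophil-like cells had a median of 3 member counts but a 90th percentile of 28.5, and the unnamed cluster a median of 7 and a 90th percentile of 32.1. Igkc cluster cells ranged from 7 (10th percentile) to 56 (90th percentile) around a median of 32. Globin-rich cells had 19.2 at the 10th percentile, whereas the late neutrophil-like cluster mixed cells almost without it and cells with as much as the median erythroblast-like cell (26).

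**Figure D2:**
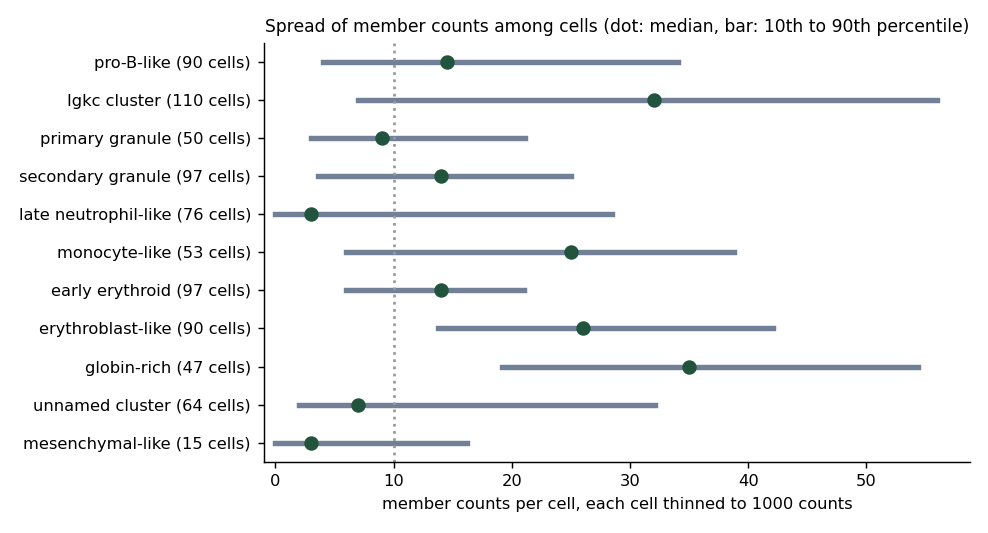
The horizontal axis gives member counts per cell after each cell was thinned to 1000 counts; dots are medians over the cells of a cluster, bars run from the 10th to the 90th percentile and the dotted line marks 10 counts. Medians run from 3 in late neutrophil-like and mesenchymal-like cells to 35 in globin-rich cells.

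The mean shares of the roles in the member RNA differed between clusters, and these differences were not tested. Chromosome structure genes took 37.7% ± 3.26 (SD, n = 9 libraries) of member counts in the Igkc cluster. In monocyte-like cells they took 45.4% ± 5.81 (n = 8), with overlap. These means were the ends of their range over blood cell clusters. Cyclins and mitotic kinases took 2.8% ± 0.490 in monocyte-like cells (n = 8), 5.2% ± 1.14 in the Igkc cluster (n = 9) and 6.81% ± 2.27 in primary-granule precursors (n = 6). Monocyte-like values lay below those of both other clusters, which overlapped each other. Partners of the anaphase-promoting complex took 6.28% ± 2.62 in globin-rich cells (n = 7) and 3.9% ± 0.702 in erythroblast-like cells (n = 8). The spindle checkpoint took 1.06% ± 0.496 and 1.81% ± 0.465 in the same clusters. Library values overlapped between these clusters for both roles.

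Pro-B-like cells had lower levels of the members than the Igkc cluster in the same libraries, both over the list and in most single genes. Of 33 members that passed the filter on low counts, 24 were lower in pro-B-like cells and none was higher (edgeR quasi-likelihood test with the library as block, adjusted p over 1296 genes). Of all genes tested, 16.4% were called lower and 15.5% higher. All 33 members had a negative log2 fold, with a median of -0.74 against -0.02 over all genes.

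Dlgap5, which stabilises kinetochore fibres, had 0, 93.0 and 289 CPM (counts scaled to the same total in every library; lowest, median and highest of 9 libraries) in pro-B-like cells and 112, 259.7 and 413 in the Igkc cluster (log2 fold -1.56 ± 0.38 SE, edgeR adjusted p = 0.00117). Cenpf, a kinetochore protein, had 278, 749.8 and 1364 CPM against 979, 1492 and 2697 (-1.30 ± 0.20, edgeR adjusted p = 3.18e-07). Cenpe, the kinetochore motor, had 184, 621 and 1922 against 587, 1675 and 3185 (-1.21 ± 0.20, edgeR adjusted p = 1.88e-06). The library values of all 3 genes overlapped between the stages, and the difference lay within libraries. Pro-B-like cells gave 10365 to 75658 counts of all genes per library, so the low CPM values of Dlgap5 rest on few counts. Ckap2l, a spindle pole protein, differed by -1.28 ± 0.33 on the log2 scale (edgeR adjusted p = 0.0019), cyclin B2 (Ccnb2) by -1.23 ± 0.24 (edgeR adjusted p = 5.43e-05) and Kif11, the motor that separates spindle poles, by -1.20 ± 0.28 (edgeR adjusted p = 0.000795). At the other end were Cdk1 (-0.08 ± 0.34), Ccnb1 (-0.22 ± 0.40) and Nuf2 (-0.28 ± 0.35), none of which passed the test (edgeR adjusted p = 0.884, 0.711 and 0.571). Cdk1 had medians of 221 CPM in pro-B-like cells and 223 in the Igkc cluster.

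Other cell-cycle lists gave context for the B lineage. Of 20 tested genes of a second G2/M list, 11 were lower in pro-B-like cells and none higher, among them the kinetochore gene Spc25 (log2 fold -1.53) and Arhgap11a (-1.15), which acts in cytokinesis. Of 18 S phase genes, 2 were lower, Rrm2 (-0.91), a subunit of ribonucleotide reductase, and Clspn (-0.67), and the median was -0.01. None of 3 subunits of the anaphase-promoting complex passed the test. The CDK inhibitors Cdkn2d (-1.24) and Cdkn1b (-1.03), which restrain cyclin-dependent kinases, were both lower in pro-B-like cells, so the Igkc cluster had higher levels of mitosis genes and of these inhibitors together. When cells were assigned to the stages one by one by their markers, none of 23 tested members was called (median -0.29), in a fit that called 36 of 826 genes lower and 34 higher.

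Early erythroid-like cells had lower levels than erythroblast-like cells in the same 8 libraries. Of 30 tested members, 24 were lower and none higher, while 20.2% of all 1269 genes were called lower and 17.7% higher. The median log2 fold was -0.97, against 0.00 over all genes. The summed level was lower in 8 of 8 libraries (1.43% against 2.56%).

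Nusap1, a spindle microtubule protein, had 141, 246 and 515 CPM (lowest, median and highest of 9 libraries) in early erythroid-like cells and 510.1, 819.9 and 1306 in 8 libraries of erythroblast-like cells (log2 fold -1.65 ± 0.22, edgeR adjusted p = 1.57e-08). Mki67, which coats mitotic chromosomes and is the proliferation marker Ki-67, had 763, 1196 and 1782 against 2211, 3320.4 and 4829 (-1.51 ± 0.12, edgeR adjusted p = 1.04e-15). The Mki67 values of the stages did not overlap, and those of Nusap1 overlapped only at their ends. Kif23, a motor of the central spindle, was also lower in early cells (-1.61 ± 0.33, edgeR adjusted p = 6.56e-05), as were Dlgap5 (-1.46 ± 0.29, edgeR adjusted p = 4.81e-05), the spindle assembly factor Tpx2 (-1.26 ± 0.21, edgeR adjusted p = 2.1e-06) and Ccnb2 (-1.26 ± 0.21, edgeR adjusted p = 2.58e-06). Cenpa, the centromeric histone (-0.34 ± 0.23), its chaperone Hjurp (-0.19 ± 0.30) and the motor Kif20b (0.20 ± 0.21) did not pass the test (edgeR adjusted p = 0.244, 0.646 and 0.48). Kif20b had medians of 532 and 476 CPM.

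The erythroid step also involved replication genes. Of 26 tested S phase genes, 22 were lower in early erythroid-like cells, with a median log2 fold of -0.93, among them Rrm2 (-1.72), the origin licensing factor Cdc6 (-1.41) and cyclin E2 (Ccne2, -1.41). Of 16 genes of the second G2/M list, 8 were lower, led by the phosphatase Cdc25b (-2.64), which activates Cdk1, and the condensin subunits Ncapd2 (-1.97) and Ncapd3 (-1.29). No gene of either list was higher. Neither of 2 tested subunits of the anaphase-promoting complex was called, and no CDK inhibitor passed the filter.

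Globin-rich cells had higher levels again than erythroblast-like cells in the same libraries. Of 18 members tested in 7 libraries, 9 were lower in erythroblast-like cells and none higher, with 15.6% of 423 genes called lower and 14.9% higher, and a median log2 fold of -0.66 against 0.00. Ube2c, the ubiquitin-conjugating enzyme of the anaphase-promoting complex, had 344, 501 and 859.8 CPM (lowest, median and highest) in erythroblast-like cells and 667, 1437 and 2229 in globin-rich cells (-1.74 ± 0.24, edgeR adjusted p = 5.96e-06). Ube2c thus had the largest fold of any member in this step, with library values that overlapped. Cenpf (-1.49 ± 0.22, edgeR adjusted p = 8.95e-06), Cenpe (-1.40 ± 0.21, edgeR adjusted p = 1.77e-05), Kif23 (-1.19 ± 0.38, edgeR adjusted p = 0.0183) and Mki67 (-1.05 ± 0.23, edgeR adjusted p = 0.00128) followed, together with Birc5, survivin of the chromosomal passenger complex (-0.95 ± 0.23, edgeR adjusted p = 0.00278). Smc2, a condensin subunit, Hmmr, a spindle protein, and Kif20b did not pass (-0.35 ± 0.20, -0.32 ± 0.25 and 0.20 ± 0.35). Here 1 of 7 tested S phase genes was called, the histone chaperone Nasp, which was higher in erythroblast-like cells (0.98), and 1 of 6 of the second G2/M list, Casc5, a kinetochore scaffold, was lower (-0.93). With cells assigned one by one, 2 of 19 members were called lower in this step, as were 24 of all 480 genes tested.

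**Figure D3:**
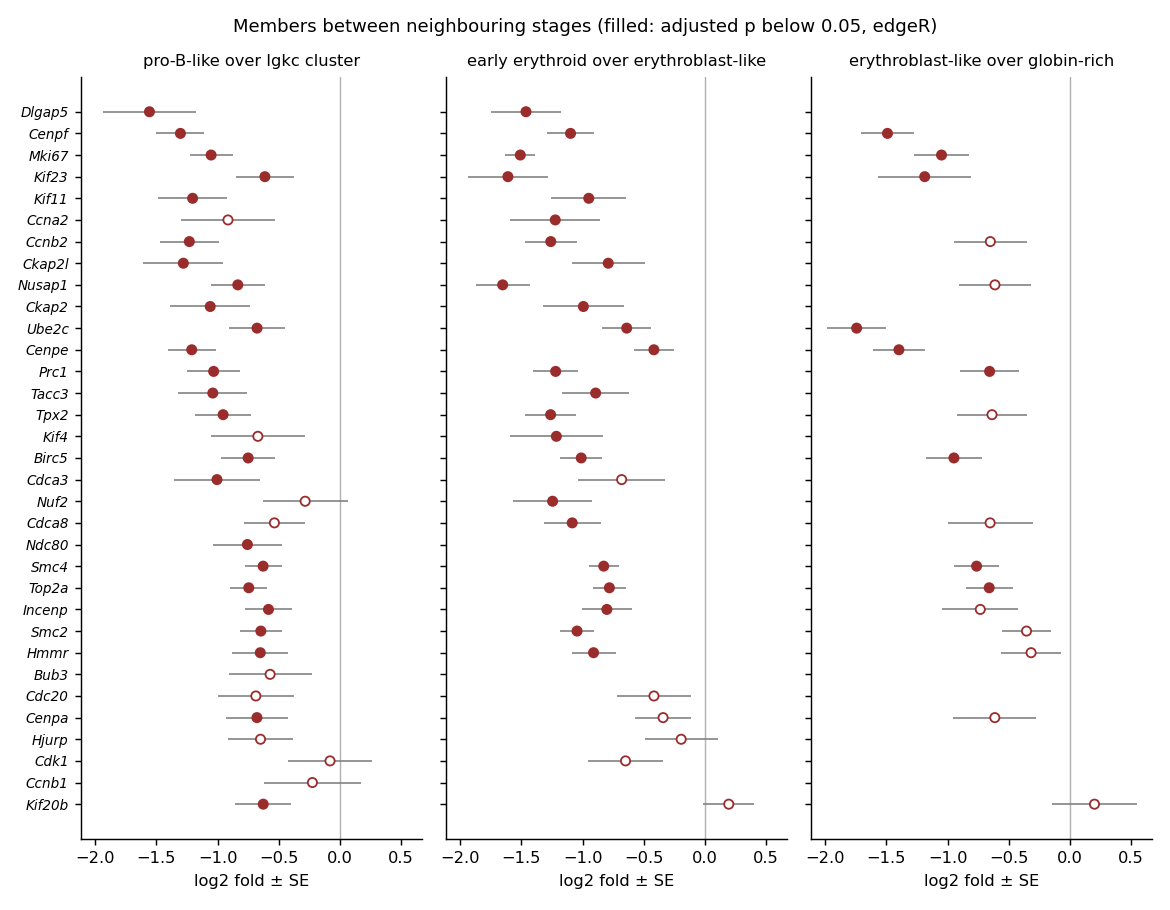
Each row is a member and each panel a comparison of neighbouring stages; the horizontal axis gives the log2 fold of the first over the second stage with its SE, and filled points passed the edgeR test at an adjusted p of 0.05. Nearly all points lie left of zero, with 24 of 33, 24 of 30 and 9 of 18 tested members filled, and Kif20b lies right of zero in both erythroid panels.

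Of the 30 members tested in both the B-lineage and the first erythroid comparison, 20 were called lower in both, out of 24 called in each comparison. Of all 955 genes tested in both, 59 (6.18%) were called lower in both. Of 18 tested in all 3 comparisons, 9 were called in all: Cenpe, Cenpf, Mki67, Top2a, Ube2c, Birc5, Kif23, Prc1, which bundles the central spindle, and Smc4, a condensin subunit. Among all 374 genes tested in the 3 comparisons, 24 (6.42%) were called lower in all. The B-lineage and erythroid comparisons drew on different cells of the same libraries, and both erythroid comparisons share the erythroblast-like cells.

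In the neutrophil series, the direction differed between the comparisons with late neutrophil-like cells. The counts of called members in the B-lineage and second erythroid comparisons also changed with the processing, as given at the end. Primary-granule precursors, the earliest neutrophil cells here, were lower than late neutrophil-like cells in 5 of 13 tested members (23.5% of 742 genes were called lower and 35.6% higher), with a median log2 fold of -0.69 where the median of all genes was 0.47. Cenpf (-1.67 ± 0.36, edgeR adjusted p = 1.04e-05) and Mki67 (-1.45 ± 0.30, edgeR adjusted p = 6.57e-06) led, and Tpx2 (-1.39 ± 0.49, edgeR adjusted p = 0.00989), Nusap1 (-1.05 ± 0.46, edgeR adjusted p = 0.041) and Top2a, the topoisomerase that untangles chromosomes (-0.69 ± 0.31, edgeR adjusted p = 0.0432), also passed. Hmmr (-0.82 ± 0.46) and Cenpe (-0.76 ± 0.36) did not pass, nor did Prc1 (-0.33 ± 0.48), Smc2 (-0.31 ± 0.34) and Incenp (-0.28 ± 0.39). Mki67 had 315, 624 and 1104 CPM in 6 libraries of primary-granule precursors and 391, 951 and 2513 in 9 libraries of late neutrophil-like cells, which overlapped widely. Member counts per cell before thinning ran the other way, 42.2 in primary-granule precursors and 21.7 in late neutrophil-like cells of the same 6 libraries. With each cell thinned to 1000 counts and cells pooled over libraries, the medians were 9 and 3. The 90th percentiles were 21.1 and 28.5, in the opposite order. At equal depth the median primary-granule cell thus held more member counts, although the summed counts gave negative folds. These thinned values were not tested. Both tested S phase genes, Nasp (1.47) and Pcna (1.33), the sliding clamp of replication, were higher in primary-granule precursors. Of 7 genes of the second G2/M list, Lbr, a nuclear envelope protein (-1.30), and the chromatin protein Hmgb2 (-0.72) were lower.

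With clusters built on all variable genes, cell-cycle genes included, this comparison turned: 3 of 5 tested members were higher in primary-granule precursors (median log2 fold 1.48), as were 163 of all 407 genes (median 0.87). The late neutrophil-like cluster held 94 cells in the main clustering, 43 in this one and 33 without integration. The part of its size in the turn was not tested. Without Pot1a wt/wt 4, 9 members were lower, without Pot1a wt/wt 5 there were 8, and without Pot1a fl/fl 4 there were 3.

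Secondary-granule precursors were higher than late neutrophil-like cells in 2 of 16 tested members and lower in none (19.9% of 487 genes were called higher and 16.6% lower), with a median log2 fold of 0.64. The called members were Smc2 (0.92 ± 0.27, edgeR adjusted p = 0.00908) and Top2a (0.73 ± 0.28, edgeR adjusted p = 0.0441). Smc2 had 607, 979.6 and 2109.8 CPM in 8 libraries against 48.8, 571 and 828 in 9, with overlap. Prc1 (1.05 ± 0.46), Cdca8 of the passenger complex (0.99 ± 0.41), Kif23 (0.97 ± 0.44), Ube2c (0.92 ± 0.42) and Incenp (0.80 ± 0.33) did not pass, nor did Kif20b (0.19 ± 0.33), Cenpf (-0.11 ± 0.43) and Hjurp (0.03 ± 0.43). All 3 tested S phase genes (Pcna 1.97, Rrm2 1.49, Nasp 1.17) and all 3 of the second G2/M list (Cks2 0.88, Anp32e 0.74, Hmgb2 0.59) were higher in secondary-granule precursors. With clusters built on all variable genes, 9 of 15 members were called higher, beside 68 of 535 genes. With clusters of libraries left unintegrated 8 of 8 members and 45 of 355 genes were called higher, and with cells assigned one by one 0 of 6 members and 0 of 198 genes. Without any 1 of Pot1a wt/wt 1, 2 and 3 the count was 1, and without Pot1a fl/fl 4 it was 4.

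The genotypes were compared to ask whether these genes differed in marrow with the deletion. No member was called in whole marrow: of 43 tested (all but Gtse1), 0 passed at an adjusted p of 0.05, where 0.0658% of all 4559 genes did (3 genes, all higher). At an unadjusted p below 0.05 there were 2 members, against 7.98% of all genes. The log2 fold of Pot1a fl/fl over control was negative for 33 members and positive for 10, with a median of -0.14 against 0.00 over all genes. With 1 library left out, this median ran from -0.25 (without Pot1a fl/fl 4) to -0.08 (without Pot1a fl/fl 2). The members were summed to 1.76%, 2.07%, 2.13%, 1.94% and 1.61% of counts in control libraries and 1.84%, 1.34%, 1.29% and 1.92% in Pot1a fl/fl libraries, so that Pot1a fl/fl 2 and 3 lay below every control and 1 and 4 within their range.

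Hmmr had 393, 773, 836, 478 and 544 CPM in controls and 471, 274, 293 and 489.5 in Pot1a fl/fl libraries. Its log2 fold, the largest in size of all members, was -0.60 ± 0.23 (SE, edgeR adjusted p = 0.497). Ccnb2 had 437, 378, 412, 353 and 328 against 348, 231, 126 and 323 (-0.49 ± 0.23, edgeR adjusted p = 0.618). Both genes were lowest in Pot1a fl/fl 2 and 3 and overlapped between genotypes. Kif4, a chromosome-bound motor, had 99.4, 159.8, 192, 137 and 153 against 101, 71.2, 41.9 and 177 (-0.47 ± 0.29, edgeR adjusted p = 0.72).

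The chromosome structure genes overlapped between genotypes too. Smc4 had 2544, 3014, 3314, 2513 and 1702 CPM in controls and 2848, 1921, 1741 and 2539 in Pot1a fl/fl libraries (-0.15 ± 0.21). Top2a had 1363, 2120.2, 2057, 2192 and 1577 against 1823, 1313, 1239 and 2164 (-0.13 ± 0.20). Mki67 had 1566, 2081, 1959, 1824 and 1981 against 2063, 921, 1105 and 2304, the widest spread within the Pot1a fl/fl group among these 4 genes relative to its mean (1599 ± 687, SD, n = 4). Its fold was -0.20 ± 0.23. Smc2 had 1117, 1872, 1843, 1625 and 928 against 1416, 758, 1097 and 1148 (-0.35 ± 0.22). The edgeR adjusted p-values of these 4 genes ran from 0.732 to 0.9.

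Among kinetochore and passenger genes, Cenpe had 751, 1262, 1187, 1399 and 572 CPM in controls and 1029, 551, 661 and 1185 in Pot1a fl/fl libraries (-0.22 ± 0.25). Cenpf had 692, 952, 861, 1037 and 593 against 759, 502, 427 and 815 (-0.35 ± 0.21). Pot1a fl/fl 2 and 3 were the lowest of all libraries in Cenpf, whereas in Cenpe control 5 lay between them. Incenp, the scaffold of the passenger complex, had 672, 744, 864, 683 and 614 against 683, 690.2, 511 and 622 (-0.13 ± 0.18). Birc5 had 659.7, 502, 543, 475 and 481 against 438, 398, 385 and 534 (-0.23 ± 0.19), with 3 of 4 Pot1a fl/fl libraries below every control. None passed (edgeR adjusted p = 0.72 to 0.898).

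Of the spindle and cytokinesis genes, Kif20b had 413, 675, 799, 787 and 419 CPM in controls and 673, 352, 209 and 471 in Pot1a fl/fl libraries (-0.46 ± 0.27). Prc1 had 544, 610.0, 626, 561 and 530.2 against 535, 384, 368 and 570.2 (-0.25 ± 0.18). Again Pot1a fl/fl 2 and 3 were below the other libraries. Nusap1 went against this order, with 513, 486, 442, 481 and 628 against 393, 505, 519 and 525.98 (-0.02 ± 0.20), where Pot1a fl/fl 1 was lowest. The highest positive folds, in Aurkb (0.31 ± 0.28) and Racgap1 (0.26 ± 0.25), did not pass the test either, with edgeR adjusted p from 0.699 to 0.991 over these genes.

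**Figure D4:**
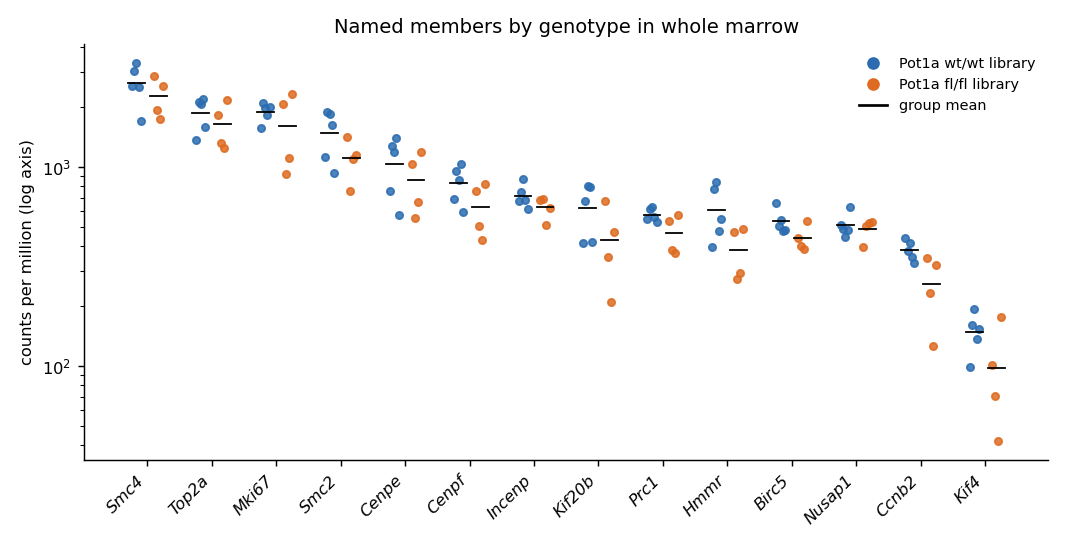
The vertical axis gives CPM of whole libraries on a log scale for the 12 members with most counts and those with the largest genotype folds; each point is a library and each line a group mean. The points of the 5 control and 4 Pot1a fl/fl libraries overlap in every gene.

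The shares of the lineages are given beside these values, without a test. Erythroid-like cells were 33.1% ± 6.85 of cells in control libraries (SD, n = 5, 24% to 42%) and 21.8% ± 5.12 in Pot1a fl/fl libraries (SD, n = 4, 15% to 27%). Granulocyte-like cells were 23.4% ± 5.32 and 34.5% ± 10.3. B-lineage-like cells were 27.1% ± 3.24 (22% to 31%) and 23.8% ± 8.58 (16% to 36%). Each of these shares overlapped between genotypes. The part of these shares in the whole-marrow values was not tested, but the comparison was also made within lineages. In B-lineage-like cells 0 of 35 tested members were called (0.0668% of 1496 genes), with 26 negative and a median log2 fold of -0.17. In granulocyte-like cells 0 of 20 were called (0% of 849 genes, median -0.10), and in erythroid-like cells 0 of 35 (0% of 1873 genes, 29 negative, median -0.15). These medians moved with single libraries. With 1 library left out, the median ran from -0.35 (without Pot1a fl/fl 1) to -0.07 (without Pot1a fl/fl 2) in B-lineage-like cells, and from -0.34 (without Pot1a fl/fl 1) to -0.03 (without Pot1a fl/fl 2, 20 of 37 negative) in erythroid-like cells, where it was -0.04 without Pot1a wt/wt 1. In granulocyte-like cells it ran from -0.20 (without Pot1a wt/wt 5) to 0.00 (without Pot1a fl/fl 3), and it was 0.15 with 30 of 44 members positive when low counts were not filtered (all genes 0.14). At an unadjusted edgeR p below 0.05 there were 2, 0 and 0 members, against 3.07%, 4.59% and 2.99% of genes. Monocyte-like cells were too few to test.

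Within lineages, the largest folds were in Ccnb1 (-0.83 ± 0.40) and Tpx2 (-0.79 ± 0.26) in B-lineage-like cells and in cyclin A2 (Ccna2, -0.74 ± 0.37) in erythroid-like cells. In granulocyte-like cells Tpx2 had the opposite sign (0.53 ± 0.32). A test of the difference of genotype effects between lineages called 0 of 39 members and 0% of 2838 genes in each of 3 contrasts (edgeR interaction with the library as block), with 5, 2 and 2 members at an unadjusted p below 0.05 against 3.88%, 3.98% and 5.21% of genes, for granulocyte against B-lineage, erythroid against B-lineage and granulocyte against erythroid effects.

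Genotype and stage together gave values without a test. Erythroblast-like cells had a summed level of 2.55% ± 0.135 in control libraries (SD, n = 5) and 2.59% ± 0.617 in Pot1a fl/fl libraries (SD, n = 3). Pro-B-like cells had 1.84% ± 0.363 and 1.56% ± 0.340 (n = 5 and 4), and the Igkc cluster 2.96% ± 0.941 and 2.82% ± 0.732 (n = 5 and 4). Late neutrophil-like cells had 0.769% ± 0.349 in controls (n = 5, 0.249% to 1.16%) and 1.16% ± 0.242 in Pot1a fl/fl libraries (n = 4, 0.828% to 1.40%), which overlapped. Of the other lists, 0 of 32 genes of the second G2/M list, 0 of 37 S phase genes (median log2 fold -0.16), 0 of 12 subunits of the anaphase-promoting complex and 0 of 4 CDK inhibitors were called in whole marrow.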

How the data were processed

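Labels and methods state that the authors aligned reads to mm10 with STAR (version not given in the sources used here) and made tables of counts per gene and barcode with the Drop-seq software; both call the deposited values read counts and do not say whether they were collapsed to molecules, so counts of one cell may hold PCR copies. The members, lists and tests were chosen with earlier results of these data known. Cells needed 200 counts or more, with no more than 25% of them mitochondrial, and 71 doublets marked by Scrublet (scanpy 1.11.5) stayed in. Clusters came from Seurat 5.3.0 (anchor integration, 2000 variable genes after 300 cell-cycle genes were left out, 20 components, resolution 1) and were named when at least 3 markers stood among the 50 leading genes. Counts were summed per library (at least 10 cells for a lineage, 5 for a stage). They were compared by the quasi-likelihood test of edgeR 4.0.16 after TMM scaling and filterByExpr, with Benjamini-Hochberg adjustment and a threshold of 0.05. The test gives no SE, so the SE of a fold is its size divided by the square root of its F statistic. Values in every library were given for the 12 members with most counts and the 3 with the largest genotype fold; for stages, the 6 members with the largest and the 3 with the smallest folds were named, and of other lists at most 3 genes each. Other genes were named after their values were seen. Alternatives were DESeq2 1.42.0, its size factors, no filter, other clusterings, other thinning and each library left out. No per-sample column was left unused.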

Additional observations from a re-analysis of the deposited data

Results flagged for a closer look

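Among 40 groups of 4 to 10 libraries that were checked, 1 library stood apart. Nusap1 had 393 CPM (counts scaled to the same total in every library) in Pot1a fl/fl 1, while the other Pot1a fl/fl libraries lay between 505 and 525.98. The gap, divided by the range of the group, was 0.843, above the critical value of 0.829 for 4 libraries. Chance alone marks about 1 in 20 groups.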

How the results depend on the processing

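Depth, 119459 to 465277 counts per library, limits what can be said of sparse members. No member was called in a genotype comparison under any alternative run, leaving out each library included (0 to 0). Replicate numbers do not pair the libraries (correlations of deviations -0.0135, -0.0162, -0.161 and 0.0104), and a replicate block called 0 members. Leaving out 1 library gave 16 to 25 members lower in pro-B-like cells, 19 to 24 in early erythroid-like, 6 to 11 in erythroblast-like and 3 to 9 in primary-granule cells, and 1 to 4 higher in secondary-granule cells. With no filter on low counts, the median fold between genotypes in granulocyte-like cells changed sign (0.15), and 13 members were lower in pro-B-like cells, 0 in primary-granule cells and 2 in erythroblast-like cells; with cells thinned to 1000 counts (chosen after seeing the data) fewer were tested, and 13 of 15, 2 of 3, 9 of 13 and 5 of 15 were lower in pro-B-like, primary-granule, early erythroid-like and erythroblast-like cells. With cells assigned one by one the counts were 0 of 23 (pro-B-like), 2 of 19 (erythroblast-like) and 0 of 6 (secondary-granule, median -0.35); the cause was not tested. With cell-cycle genes in the clustering, 0 members were lower in primary-granule cells (median 1.48; Mki67 0.80, Cenpe 1.60, Smc2 4.41) and 9 higher in secondary-granule cells (Cenpf 2.30); without integration there were 8 (Cenpf 4.76), and with Pot1a wt/wt 2 and 3 as 1 library 1 (Hjurp -0.0765). The remaining changes of sign were in genes not called in the values reported. Without filter these were Cdk1 (0.0092) in the B lineage, Prc1 (0.0984), Smc2 (0.112) and Incenp (0.153) in primary-granule, Cenpf (0.187) in secondary-granule, and Smc2 (0.168) and Hmmr (0.17) in erythroblast-like comparisons. Cenpf in the secondary-granule comparison was 0.0511 with DESeq2 and 0.45 thinned, Hmmr in the erythroblast-like comparison 0.0942 thinned, Kif20b -0.23 with cells assigned one by one, and Nusap1 between genotypes 0.0707 with the replicate block. With 1 library left out, signs changed for Nusap1 between genotypes (-0.0929 to 0.0832), Cdk1 in the B lineage (-0.36 to 0.263), Incenp in primary-granule (-1.03 to 0.017), Kif20b (-0.0608 to 0.327), Cenpf (-0.461 to 0.362) and Hjurp (-0.1995 to 0.1895) in secondary-granule, and Kif20b (-0.071 to 0.344) and Hjurp (-0.453 to 0.0334) in early erythroid comparisons. Shares of cells moved with the limit: in control libraries 86.5% had at least 4, 69.1% at least 10 and, thinned to 1500 counts, 98.4% at least 2 counts, and in Pot1a fl/fl libraries 97.4% had at least 1, 86.7% at least 4, 65.0% at least 10, and 90.4% and 98.7% at least 2 when thinned to 750 and 1500. In late neutrophil-like cells these were 86.8% (1), 39.5% (4), 27.6% (10) and 86.5% (thinned to 1500), and in the Igkc cluster 85.5% (10) and 98.8% (thinned to 1500). No primary-granule comparison was possible without integration, nor an erythroblast-like to globin-rich one in both other clusterings.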
